A study of Mus musculus with 4 samples.

Results

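The genes described here encode the Polycomb complexes and the demethylases that act on lysine 27 of histone H3 (H3K27). The members are 10 genes named by symbol: Ezh1, Ezh2, Eed and Suz12 of Polycomb repressive complex 2 (PRC2), Ring1, Rnf2, Pcgf1 and Pcgf6 of Polycomb repressive complex 1 (PRC1), and the demethylase genes Kdm6a and Kdm6b. Of the 10 members, 9 were among the 16861 genes listed in the 4 libraries, and Ring1 was not analysed here. The libraries hold polyA RNA of mouse germinal vesicle (GV) oocytes, which are arrested before the first meiotic division, 2 from oocytes of the non-surrounded nucleolus (NSN) configuration and 2 from the surrounded nucleolus (SN) configuration. The comparison of SN with NSN asks how the oocyte transcriptome differs between these chromatin configurations. Oocytes came from C57BL/6J females 3 weeks of age. Live Hoechst staining, in medium with milrinone, which holds oocytes in meiotic arrest, sorted them into NSN, with diffuse chromatin, and SN, with a ring of condensed chromatin around the nucleolus, and oocytes that could not be sorted were set aside. Each library pooled 15 oocytes freed of cumulus cells by pipetting and of the zona pellucida by pronase, and was amplified by Smart-seq2 from an oligo(dT) primer. The labels' protocol speaks of 3 samples per group, and 2 libraries per group were analysed here. No source used here says whether libraries of one configuration came from separate animals, so p-values measure the spread between these libraries, which may be technical.

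PRC2 places methyl groups on H3K27 through EZH1 or EZH2, which need EED and SUZ12 to be active and stable. PRC1 adds ubiquitin to histone H2A through RING1 or RNF2, and the PCGF subunit bound to them sets which form of the complex is made. In growing oocytes H3K27 trimethylation is laid down over broad regions, and part of it is passed to the embryo, where it silences maternal alleles of a group of imprinted genes.

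The total number of read pairs per library was 17408945 and 17911559 in NSN and 17069772 and 17998361 in SN. The unit is fragments per kilobase of transcript, relative to the library total (FPKM), and 3 read pairs on a transcript of 1 kb correspond to 0.167 to 0.176 FPKM at these depths. PCR reads without molecular identifiers are not independent molecules, so this floor covers counting error only. As a check of the labels, all 12 oocyte markers were listed, led by the zona pellucida gene Zp3 at 7172 ± 154 FPKM in NSN and 5316 ± 153 FPKM in SN (mean ± SD, n = 2 each). The 12 markers summed to 21922 and 20778 FPKM in NSN and to 15052 and 14410 FPKM in SN. Of them, 8 passed the test described below as lower in SN, beside 1.98% of all genes tested. These were Zp1, Zp2, Zp3, Gdf9, Bmp15, Nobox, Mos and Ddx4, while Figla, Dppa3, Oosp1 and Kit did not pass. Of 16 granulosa and cumulus markers, 10 were listed, summing to 9.78 and 13.8 FPKM in NSN and 14.1 and 14.0 FPKM in SN, and the most abundant was the aromatase gene Cyp19a1 at 5.81 and 8.06 FPKM in NSN and 8.38 and 8.22 FPKM in SN. The others listed were Kitl, Nr5a2, Inha, Hsd17b1, Fshr, Star, Cyp11a1, Has2 and Inhba. Foxl2, Amh, Amhr2, Nr5a1, Ptx3 and Wt1 of the same list were not among the genes listed. Neither were the blood markers Ptprc, Hbb-bs and Hba-a1 or the theca marker Cyp17a1. In pooled oocytes, fewer cells of a type and less RNA per cell cannot be told apart, and the part of these marker levels in the results below was not tested.

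Among the Polycomb members, Suz12, Kdm6a and Eed were higher in SN, no member passed the test as lower, and 6 did not pass. Suz12 had the largest difference of the 9, with a mean FPKM in SN 1.84 times that in NSN, followed by Kdm6a at 1.65 times and Eed at 1.32 times. A gene passed when limma gave a Benjamini-Hochberg adjusted p under 0.05 over all genes tested with a fold change of at least 1.2, on log2(FPKM + 0.5), a scale that understates changes of low genes. Of 11672 genes tested, 926 (7.93%) passed, 695 (5.95%) as higher in SN and 231 (1.98%) as lower, against 3 of 9 members. After scaling of the libraries to a common median the balance turned, with 78 higher and 179 lower. Both SN libraries lay above both NSN libraries for 6 members (Ezh2, Eed, Suz12, Pcgf6, Kdm6a and Kdm6b) and for 44.8% of all genes tested, so this count alone says little of the members. The reverse, with both SN values under both NSN values, held for 1 member, Pcgf1, and for 17.8% of all genes. Fitted values were above 0 for 8 members, all but Pcgf1, and for 66.7% of all genes. The median log2 fold change of the members was 0.33, and that of all genes tested was 0.14. Because FPKM is relative to the library total, this general shift of 0.14 belongs beside every change below. The 100 most abundant genes held 39.8% and 38.8% of read pairs in NSN and 35.5% and 35.4% in SN. Under that scaling, which brought the shift to 0.01, Suz12 and Kdm6a still passed, Eed did not, and the fitted values of Ezh1 and Rnf2 turned from above to below 0.

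**Figure D1:**
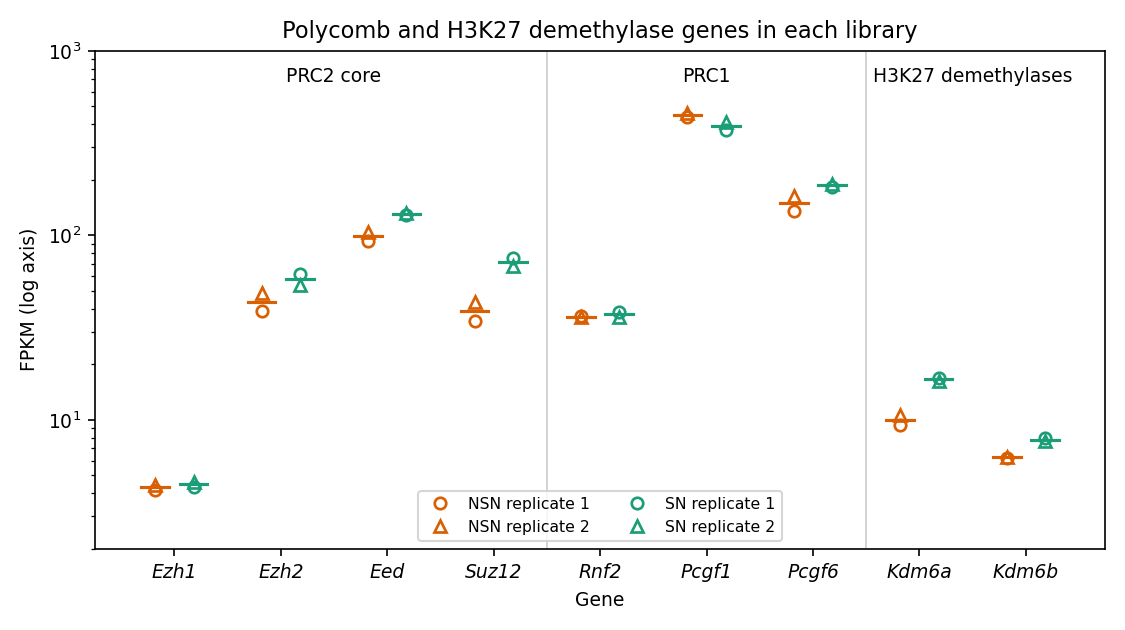
FPKM (log axis) of the 9 listed Polycomb and H3K27 demethylase genes in each library, with circles for replicate 1, triangles for replicate 2 and bars for the mean of 2 libraries, orange for NSN and green for SN. Both SN libraries lie above both NSN libraries for Ezh2, Eed, Suz12, Pcgf6, Kdm6a and Kdm6b and below them for Pcgf1, while those of Ezh1 and Rnf2 overlap.

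In the PRC2 core, Suz12 and Eed were higher in SN oocytes, Ezh2 lay higher without passing the test, and Ezh1 differed by less than the spread between libraries. The 4 core genes together summed to 170.8 and 199.9 FPKM in NSN and to 270.4 and 257.4 FPKM in SN. Suz12, the subunit on which the complex is assembled, lies on chromosome 11 at positions 79883891 to 79925421 of the plus strand (GRCm39). Suz12 measured 34.3 and 43.3 FPKM in the NSN libraries and 75.0 and 67.8 FPKM in the SN libraries. Both SN values stood well clear of both NSN values, and 2609, 3391, 5600 and 5333 read pairs lay behind them. The means were 38.8 ± 6.38 FPKM in NSN and 71.4 ± 5.14 FPKM in SN (SD, n = 2), a log2 fold change of 0.88 (SE 0.13, 95% interval 0.58 to 1.18, limma adjusted p = 0.0364). After median scaling the log2 fold change of Suz12 was 0.73 (limma adjusted p = 0.0471). Eed, which binds the methylated histone and stimulates the enzyme, lies on chromosome 7 at positions 89603862 to 89630217 of the minus strand. Eed measured 93.5 and 104 FPKM in NSN and 129 and 132 FPKM in SN. The SN pair was closer together than the NSN pair and the groups did not overlap, with 98.6 ± 7.14 FPKM in NSN and 130.3 ± 1.71 FPKM in SN (SD, n = 2). The log2 fold change of Eed was 0.40 (SE 0.08, 95% interval 0.21 to 0.60, limma adjusted p = 0.0440), and 0.25 after median scaling (limma adjusted p = 0.103). Exons of Eed share 9.21% of their bases with the antisense transcript E230029C05Rik, and since counting ignored strand, reads of the pair cannot be told apart there.

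Ezh2, the main methyltransferase of dividing cells, lies on chromosome 6 at positions 47507073 to 47572331 of the minus strand. Ezh2 measured 38.8 and 48.5 FPKM in NSN and 61.9 and 53.5 FPKM in SN. NSN replicate 2 was the nearest to the SN values and the groups did not overlap, with 43.7 ± 6.87 FPKM in NSN and 57.7 ± 5.95 FPKM in SN (SD, n = 2). The log2 fold change of Ezh2 matched that of Eed at 0.40, but with a larger error it did not pass (SE 0.13, 95% interval 0.09 to 0.72, limma adjusted p = 0.0957). Without NSN replicate 2 it was 0.56 and passed (limma adjusted p = 0.0262). Ezh2 also passed among genes with a mean of at least 5 FPKM, at 0.40, and with voom weights, at 0.41 (limma adjusted p = 0.0458 and 0.0246). Ezh2 did not pass after median scaling, at 0.25 with or without voom weights (limma adjusted p = 0.142 and 0.230), or without NSN replicate 1, at 0.24 (limma adjusted p = 0.327). Ezh1, the paralog with weaker enzymatic activity, lies on chromosome 11 at positions 101081934 to 101117315 of the minus strand and was the lowest of the 9 genes. Ezh1 measured 4.16 and 4.46 FPKM in NSN and 4.33 and 4.62 FPKM in SN. The groups overlapped, and the log2 fold change was 0.05 (SE 0.13, 95% interval -0.26 to 0.35, limma adjusted p = 0.818), below the general shift, and -0.09 after median scaling. Of the exon bases of Ezh1, 9.59% lie over exons of Cntnap1 and Gm72062 on the opposite strand.

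The log2 fold changes of Suz12 and Eed stayed above 0 whichever library was left out, while their calls did not hold in every such fit. In fits that leave out 1 library, the single library of that group is assumed to vary like the other group. With fewer libraries, a call lost there does not show that a difference rests on the library left out. Suz12 did not pass without NSN replicate 1, SN replicate 1 or SN replicate 2, with log2 fold changes of 0.71 to 1.05 over the 4 omissions. Eed did not pass under the same omissions either, with log2 fold changes of 0.33 to 0.48 over the 4 omissions. Far fewer of all genes passed under those omissions than with all 4 libraries, so the lost calls are not particular to these genes. Without NSN replicate 2 both passed, at log2 fold changes of 1.05 for Suz12 and 0.48 for Eed. With the trend of fold change with transcript length removed, a fit in which 0 of all genes tested passed in limma (3130 at an unadjusted p under 0.05), the log2 fold changes were 0.75 for Suz12 and 0.35 for Eed (limma adjusted p = 0.050, just above the threshold, and 0.0661). Over 13 alternatives with all 4 libraries the limma adjusted p ranged from 0.00044 to 0.0921 for Suz12 and from 0.0065 to 0.116 for Eed.

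Of the PRC1 genes, none of the 3 tested passed with limma, although Pcgf1 and Pcgf6 had an unadjusted p under 0.05, and they lay in opposite directions. Together Rnf2, Pcgf1 and Pcgf6 summed to 611 and 660 FPKM in NSN and 595 and 640 FPKM in SN, so the libraries overlapped. Rnf2, the ubiquitin ligase of the complex, lies on chromosome 1 at positions 151333755 to 151376729 of the minus strand. Rnf2 measured 36.6 and 35.9 FPKM in NSN and 38.5 and 36.0 FPKM in SN. For their level these 4 values spanned less than those of any other member, with a log2 fold change of 0.04 (SE 0.09, 95% interval -0.17 to 0.24, limma adjusted p = 0.791). Its value was -0.11 after median scaling and -0.01 without SN replicate 1. Ring1, which encodes the other ligase and lies on chromosome 17 at positions 34239766 to 34243654 of the minus strand, was not analysed here.

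Pcgf1, which defines the PRC1 form that binds unmethylated CpG islands through KDM2B, was the most abundant member. The gene lies on chromosome 6 at positions 83054850 to 83057836 of the plus strand. Pcgf1 measured 439.6 and 460.5 FPKM in NSN and 373 and 413 FPKM in SN, more than 99.1% of the genes listed. Both SN values were below both NSN values, with 450.0 ± 14.8 FPKM in NSN and 393 ± 28.3 FPKM in SN (SD, n = 2). The log2 fold change was -0.20 (SE 0.08, 95% interval -0.39 to -0.01, limma adjusted p = 0.149), and -0.35 after median scaling (limma adjusted p = 0.0684). With voom weights on recovered read pairs and median scaling, Pcgf1 passed as lower (limma adjusted p = 0.0187), within a range of 0.0187 to 0.307 over alternatives with all 4 libraries and of 0.132 to 0.387 when 1 library was left out. In the later annotation, 30.4% of the exon bases of Pcgf1 are shared with the antisense transcript Gm67322. A processed pseudogene, Gm8930, is 97.5% identical to Pcgf1 over 691 bases. The part of either in the measured level of Pcgf1 was not tested, so that level is uncertain. Pcgf6, which defines a PRC1 form that binds DNA with MGA and L3MBTL2, lies on chromosome 19 at positions 47022052 to 47039418 of the minus strand. Pcgf6 measured 135 and 164 FPKM in NSN and 184 and 190.5 FPKM in SN. Both SN values were above both NSN values, with a log2 fold change of 0.33 that did not pass (SE 0.10, 95% interval 0.08 to 0.58, limma adjusted p = 0.0893). Pcgf6 passed without NSN replicate 2, where its log2 fold change reached 0.47 (limma adjusted p = 0.0273). At a log2 fold change of 0.33 it also passed among genes with a mean of at least 5 FPKM and with voom weights (limma adjusted p = 0.0433 and 0.0254). Pcgf6 did not pass after median scaling, at 0.18 with or without voom weights (limma adjusted p = 0.214 and 0.274), or without NSN replicate 1, at 0.19 (limma adjusted p = 0.359).

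Of the H3K27 demethylase genes, Kdm6a was higher in SN oocytes, and Kdm6b lay higher without passing the test. The pair summed to 15.6 and 16.9 FPKM in NSN and 24.8 and 23.9 FPKM in SN. Kdm6a, the X-linked gene of the UTX demethylase, lies on chromosome X at positions 18028776 to 18146877 of the plus strand. Kdm6a measured 9.42 and 10.6 FPKM in NSN and 16.9 and 16.2 FPKM in SN. The groups were far apart for their spread, at 10.02 ± 0.851 FPKM in NSN and 16.6 ± 0.477 FPKM in SN (SD, n = 2), on 973, 1129, 1711 and 1732 read pairs. The log2 fold change of Kdm6a was 0.70 (SE 0.11, 95% interval 0.44 to 0.96, limma adjusted p = 0.0364), and 0.55 after median scaling (limma adjusted p = 0.0497). Kdm6a did not pass without NSN replicate 1, SN replicate 1 or SN replicate 2, fits in which far fewer of all genes passed too. Over the 4 omissions Kdm6a had log2 fold changes of 0.62 to 0.78. Quantile normalization and removal of the length trend left it just outside the threshold, at log2 fold changes of 0.52 and 0.50 (limma adjusted p = 0.0525 and 0.0532), within a range of 0.00095 to 0.0984 over 13 alternatives with all 4 libraries. Kdm6b, the gene of the JMJD3 demethylase, lies on chromosome 11 at positions 69289334 to 69304501 of the minus strand. Kdm6b measured 6.20 and 6.31 FPKM in NSN and 7.93 and 7.64 FPKM in SN. The groups did not overlap, but the log2 fold change of 0.29 did not pass (SE 0.11, 95% interval 0.03 to 0.56, limma adjusted p = 0.129). It was 0.15 after median scaling, 0.10 after quantile normalization and 0.08 with the length trend removed (limma adjusted p = 0.394, 0.556 and 0.649).

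By FPKM, which is per length, Pcgf1 was followed by Pcgf6 and Eed in both configurations, and Kdm6a, Kdm6b and Ezh1 came last in that order. In NSN, the FPKM of Suz12 overlapped those of Ezh2 and of Rnf2 across libraries. Within each NSN library Suz12 was below Ezh2, while it was below Rnf2 in replicate 1 and above it in replicate 2. In SN, Suz12, Ezh2 and Rnf2 stood apart in that order. Ratios within a library do not depend on scaling. The ratio of Suz12 to Ezh2 FPKM was 0.883 and 0.892 in NSN and 1.21 and 1.27 in SN. That of Eed to Ezh2 overlapped between configurations, at 2.41 and 2.13 in NSN and 2.09 and 2.46 in SN. Suz12 thus stood higher relative to Ezh2 in both SN libraries, while Eed kept no clear side. The ratio of Ezh2 to its paralog Ezh1 was 9.34 and 10.9 in NSN and 14.3 and 11.6 in SN. That of Kdm6a to Kdm6b was 1.52 and 1.68 in NSN and 2.13 and 2.12 in SN. For Pcgf6 to Pcgf1 the ratio was 0.307 and 0.355 in NSN and 0.493 and 0.461 in SN. These 3 ratios and that of Suz12 to Ezh2 were higher in both SN libraries than in both NSN libraries, but 2 libraries against 2 allow an exact two-sided permutation p no smaller than 0.333. The ratios of Suz12 to Ezh2, Eed to Ezh2 and Pcgf6 to Pcgf1 were chosen after the values were seen.

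Within the NSN pair, replicate 2 was above replicate 1 for 8 of the 9 members, all but Rnf2, and for 60.9% of all genes tested. On the log2 scale NSN replicate 2 lay between NSN replicate 1 and the SN mean for Suz12, at 31.8% of that distance. For Eed it lay at 30.9% of the distance, and for Kdm6a at 21.1%. For Ezh2 and Pcgf6, which passed only without this library among the 4 omissions, it lay at 56.7% and 58.9%. NSN replicate 2 also lay between NSN replicate 1 and the SN mean for Kdm6b, at 7.75%, and Ezh1, at 96.9%. For Pcgf1 and Rnf2 it lay on the side away from the SN mean, at -41.0% and -130.3%. For Ezh1 and Rnf2 the distance divided by was small, so replicate gaps of 0.092 and -0.030 on the log2 scale gave large percentages.

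A wider list of 50 genes held partners of PRC2 and PRC1, genes of H2A deubiquitination and the Y-linked paralog Uty. Of these, 44 were listed and 35 were tested, the other 9 having a mean under 0.5 FPKM. In SN, 6 were higher (Mtf2, Bmi1, Usp7, Sfmbt1, Fbrsl1 and Asxl1) and none passed as lower, beside 5.95% and 1.98% of all genes tested. The median log2 fold change of the 35 was 0.27, beside 0.14 for all genes, and both SN values were above both NSN values for 23 of them, beside 44.8% of all genes. By the roles assigned for this list, 1 of 9 PRC2 partners, 4 of 21 PRC1 partners and 1 of 5 genes of H2A deubiquitination passed. Sfmbt1 was counted there as a PRC1 partner, and its membership of the complex was not examined. Epop, Pcgf2, Cbx6, Scml4 and Uty were among those not analysed here.

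**Figure D2:**
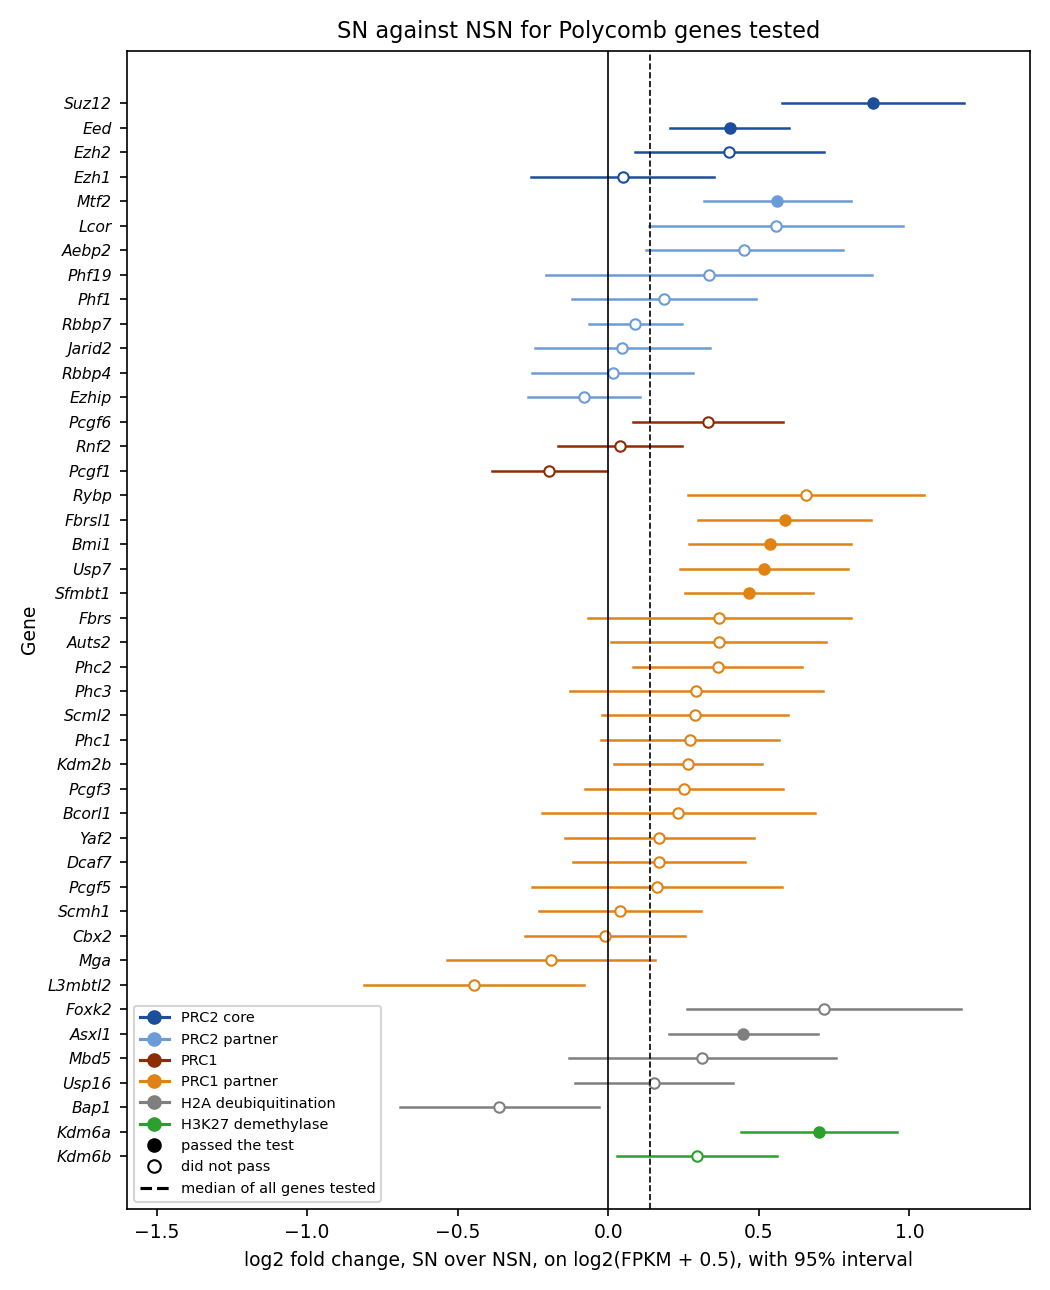
Log2 fold change of SN over NSN on log2(FPKM + 0.5), with bars for the 95% interval of limma, for the 9 members and the 35 tested genes of the wider list, coloured by role; filled points passed the test and the dashed line marks the median of all genes tested, 0.14. The filled points, led by Suz12 at 0.88 and Kdm6a at 0.70, all lie to the right of the dashed line.

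Among PRC2 partners, Mtf2, which brings PRC2 to CpG islands, measured 14.3 ± 0.639 FPKM in NSN and 21.4 ± 1.49 FPKM in SN (SD, n = 2), a log2 fold change of 0.56 (SE 0.10, limma adjusted p = 0.0386). The most abundant partner was Rbbp7, a histone-binding protein shared with other chromatin complexes, at 2516 and 2593 FPKM in NSN and 2727 and 2711 FPKM in SN. Its paralog Rbbp4 was at 7.42 and 7.23 FPKM in NSN and 7.66 and 7.16 FPKM in SN. In every library Rbbp7 was thus at least 339 times as abundant per length as Rbbp4, and neither passed the test (limma adjusted p = 0.376 and 0.943). In the later annotation, 25.1% of the exon bases of Rbbp4 lie over Sync and 2.24% of those of Rbbp7 over Txlng, on opposite strands. Near-identical copies of these 2 genes were not searched for, so the size of this ratio is uncertain. Ezhip, an inhibitor of PRC2 catalysis, followed at 740 and 665 FPKM in NSN and 658 and 668 FPKM in SN. Its groups overlapped (limma adjusted p = 0.500), and in each library Ezhip was above Eed, the most abundant gene of the PRC2 core.

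Among PRC1 partners, Bmi1, a PCGF subunit of canonical PRC1, was the most abundant at 64.7 ± 8.26 FPKM in NSN and 93.9 ± 7.46 FPKM in SN (SD, n = 2), a log2 fold change of 0.54 (SE 0.11, limma adjusted p = 0.0446). The deubiquitinase gene Usp7 measured 43.0 ± 6.58 FPKM in NSN and 61.4 ± 1.06 FPKM in SN, a log2 fold change of 0.52 (SE 0.12, limma adjusted p = 0.0479). Sfmbt1, which encodes an MBT domain protein, measured 22.6 ± 0.346 FPKM in NSN and 31.5 ± 1.28 FPKM in SN, a log2 fold change of 0.47 (SE 0.09, limma adjusted p = 0.0406). Bmi1 was thus higher in SN while the members Pcgf1 and Pcgf6, which encode PCGF subunits of other PRC1 forms, did not pass, and the difference between them was not tested. Fbrsl1, a relative of Auts2, measured 4.63 ± 0.286 FPKM in NSN and 7.20 ± 0.214 FPKM in SN, a log2 fold change of 0.59 (SE 0.12, limma adjusted p = 0.0440). Asxl1, which activates the H2A deubiquitinase BAP1, measured 9.62 ± 0.216 FPKM in NSN and 13.3 ± 0.643 FPKM in SN, a log2 fold change of 0.45 (SE 0.10, limma adjusted p = 0.0496). Usp16, another H2A deubiquitinase gene and the most abundant of that role, overlapped between configurations at 42.0 ± 4.74 FPKM in NSN and 46.7 ± 3.51 FPKM in SN. Both SN values lay under both NSN values for L3mbtl2, Mga and Bap1, named after their values were seen, with log2 fold changes of -0.45, -0.19 and -0.36 that did not pass. L3mbtl2 and Mga encode partners of PCGF6, whose own gene lay in the opposite direction. Of the wider list, 0 genes passed in limma after median scaling, with 12 at an unadjusted p under 0.05, and 11 passed with voom weights and median scaling, 8 as higher and 3 as lower, beside 14.7% of all genes (967 of 11661 as lower). The 3 lower were L3mbtl2, Mga and Bap1. With voom weights alone 12 passed as higher and L3mbtl2 as lower, beside 19.7% of all genes. Without NSN replicate 1, SN replicate 1 or SN replicate 2, no gene of the wider list passed in limma, and far fewer of all genes passed as well. Without NSN replicate 2, several passed as higher and L3mbtl2 as lower, and more of all genes passed too.

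The tested Polycomb genes whose mean-centred log2 values over the 4 libraries were closest to each member were found among 43 others by root mean square distance, as a description with no test. Suz12 was closest to Kdm6a at a distance of 0.11 and to Foxk2 at 0.12. Kdm6a was closest to Rybp and Fbrsl1, both at 0.07. Suz12 was not among the 2 genes closest to Kdm6a. These distances rest on the same values as the log2 fold changes above and are not independent of them. Eed was closest to Phc2 at 0.02 and Aebp2 at 0.05, and Ezh2 to Auts2 and Mbd5, both at 0.06. Rnf2 was closest to Rbbp4 at 0.01 and Jarid2 at 0.04, and Ezh1 to Scmh1 at 0.02 and Rbbp7 at 0.04, none of which passed the test. Pcgf1 was closest to Ezhip and Cbx2, both at 0.11, Pcgf6 to Mbd5 and Phc1, both at 0.05, and Kdm6b to Phc3 at 0.04 and Kdm2b at 0.05.

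Genes imprinted through maternal H3K27 trimethylation and genes that Polycomb silences in other cell types were looked up as well. Those listed are described without a test of the group. Of 6 genes imprinted through maternal H3K27 trimethylation, Gab1 and Sfmbt2 were listed. Gab1 had 0 and 9 read pairs in NSN and 4 and 3 in SN, and Sfmbt2 had 0 and 5 in NSN and 6 and 4 in SN, so neither was tested. Xist, Slc38a4, Jade1 and Smoc1 were not analysed here. Of 9 listed Hox genes, Hoxa7 alone was tested, at 7.82 and 7.04 FPKM in NSN and 5.69 and 6.58 FPKM in SN. Both SN values of Hoxa7 were below both NSN values, with a log2 fold change of -0.26 that did not pass (limma adjusted p = 0.219). The other 8 Hox genes had at most 17 read pairs in any library. The endoderm regulator gene Gata4 measured 1.99 and 1.81 FPKM in NSN and 2.51 and 3.08 FPKM in SN and did not pass (limma adjusted p = 0.112). Gata6 and Pax6 had means under 0.5 FPKM, and Sox1, Cdx2 and T were not analysed here.

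As a description, the 300 bases around the starts of Suz12, Eed, Kdm6a and Ezh2 are shown. They come from RefSeq on GRCm38.p6, where 8 of the 10 members were matched (not Pcgf1 and Kdm6b). The paper reports that labelling of new RNA gave almost no signal in SN oocytes. RNA levels here do not measure transcription, and the part of promoters in the differences was not tested. Of 5 motifs searched on both strands, the E2F letters TTTCCCGC, TTTGGCGC, TTTCGCGC or TTTGCCGC, in capitals below, were in the windows of Suz12 and Ezh2 and in 2.26% of 32851 promoters. The first matched base was base 32 of the window of Suz12 and base 254 of that of Ezh2. Eed and Kdm6a held no E2F match, so the 3 genes higher in SN shared none. CCAAT was in the windows of Eed, Ezh2 and Suz12 and in 37.4% of all promoters. The GC box letters GGGCGG were in those of Suz12, Kdm6a, Rnf2, Ring1 and Pcgf6 and in 35.7% of all promoters. The NRF1 motif was in those of Ezh1, Ezh2 and Pcgf6 and in 4.60% of all promoters, while TATAAA, in 13.6% of all promoters, was in none of the 8. CpG dinucleotides numbered 41 in the window of Suz12, 31 in Ezh2, 21 in Kdm6a and 17 in Eed, against a median of 7 over all promoters. The other matched members had 37 (Ring1), 30 (Rnf2), 23 (Ezh1) and 22 (Pcgf6), so a high count was not particular to the genes higher in SN. The windows lie at chr11:79992856-79993155 (plus strand) for Suz12, chr6:47594981-47595280 (minus strand) for Ezh2, chr7:89980927-89981226 (minus strand) for Eed and chrX:18162325-18162624 (plus strand) for Kdm6a. A match is a description of letters and not a binding site.
Suz12: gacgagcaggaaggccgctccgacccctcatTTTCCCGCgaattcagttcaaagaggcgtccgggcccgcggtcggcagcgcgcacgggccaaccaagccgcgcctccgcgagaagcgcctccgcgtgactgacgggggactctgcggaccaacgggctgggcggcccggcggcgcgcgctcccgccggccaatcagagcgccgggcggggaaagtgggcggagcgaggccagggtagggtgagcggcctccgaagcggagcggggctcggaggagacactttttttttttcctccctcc
Ezh2: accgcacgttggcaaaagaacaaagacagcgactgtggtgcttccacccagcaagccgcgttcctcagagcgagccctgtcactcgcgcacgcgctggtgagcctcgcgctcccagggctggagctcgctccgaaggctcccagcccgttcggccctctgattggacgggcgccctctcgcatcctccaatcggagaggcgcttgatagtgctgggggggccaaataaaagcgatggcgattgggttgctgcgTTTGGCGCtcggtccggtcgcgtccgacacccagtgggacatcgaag
Eed: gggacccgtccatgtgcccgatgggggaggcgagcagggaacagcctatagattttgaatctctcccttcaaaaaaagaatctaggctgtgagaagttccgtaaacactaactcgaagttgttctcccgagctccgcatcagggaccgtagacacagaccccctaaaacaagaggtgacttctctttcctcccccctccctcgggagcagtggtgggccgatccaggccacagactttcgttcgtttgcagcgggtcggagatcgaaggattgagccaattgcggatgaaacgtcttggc
Kdm6a: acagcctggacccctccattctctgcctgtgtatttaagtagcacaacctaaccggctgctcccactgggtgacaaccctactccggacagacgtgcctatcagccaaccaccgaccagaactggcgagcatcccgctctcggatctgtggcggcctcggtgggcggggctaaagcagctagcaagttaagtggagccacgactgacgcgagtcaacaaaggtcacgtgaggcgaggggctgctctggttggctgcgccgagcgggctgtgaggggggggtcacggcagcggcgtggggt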

How the data were processed

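The authors trimmed reads with Trim Galore (version 0.6.10), mapped them to GRCm39 with HISAT2 and GENCODE genes, and counted read pairs on exons without strand in featureCounts. The values the authors deposited are FPKM, computed with their own script, 1 per gene and library, relative to total read pairs. Their DESeq2 comparison was not used here. Library totals, transcript lengths and whole read pairs were recovered from the deposited FPKM through 5 mitochondrial tRNA genes for 99.89% of the genes listed, at a relative tolerance of 1e-09. Groups came from the labels, and the members and lists were chosen with earlier results of these data known.

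Genes with a mean of at least 0.5 FPKM were fitted on log2(FPKM + 0.5) in limma (version 3.58.1, R 4.3.3), with a variance trend, 2 SN against 2 NSN libraries, two-sided, Benjamini-Hochberg adjusted. Members, the genes of the wider list that passed, the 2 most abundant genes of each role, genes not listed and the 2 genes most like each member were named by rule, except for an item that is not reported here. Alternatives covered pseudocounts, filters, scalings, voom weights on read pairs, a transcript length correction, the replicate block and leaving out each library. Positions and shared exons came from a later GENCODE release on GRCm39, near-identical copies from BLAST (version 2.17.0), and promoters from RefSeq (GRCm38.p6). Smart-seq2 amplification and the oligo(dT) primer can favour some transcripts over others, which comparisons of 1 gene between groups avoid in part.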

Additional observations from a re-analysis of the deposited data

How the results depend on the processing

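Of 926 genes, 3 members and 6 genes of the wider list that passed (75.1% of the 926 higher in SN), the counts depended on scaling and variance model. Median scaling gave 257 genes (30.4% higher), 2 members and 0 of the wider list (12 at an unadjusted p under 0.05 in limma). Quantile normalization gave 230 (32.2% higher), 1 member (Suz12) and 0 (13), and scaling to totals that leave out the top 100 genes gave 248 (42.3% higher), 2 members and 0 (13). With no filter 0 genes passed (4092 at an unadjusted p under 0.05), 0 members (6) and 0 of the wider list (15), and a mean of at least 5 FPKM gave 1496 of 5519 genes (27.1%) and 5 of 8 members. Without the variance trend there were 0 (3449), 0 (4) and 0 (15). The length correction gave 0 (3130), 0 (6) and 0 (10). Voom weights gave 2298 genes, 5 members and 13 of the wider list (12 higher), and with median scaling 1711 (43.5% higher), 3 members and 11 (8 higher). Calls of pseudocounts 0.1 and 1 stayed within 1.5 times of these counts. The causes were not tested.

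The replicate block gave 422 genes (63.0% higher), 2 members (Suz12 and Kdm6a, with Eed at a limma adjusted p of 0.0608) and 0 of the wider list (13 at an unadjusted p under 0.05). With the length correction and the block there were 0 (2773), 0 (6) and 0 (9). The deviations of same-numbered libraries had a correlation of -0.07 across genes, and no source used here says whether a number marks a shared day or batch, so the numbers were not taken to pair the libraries. Leaving out 1 library gave 0 to 1685 genes (0 without NSN replicate 1, with 2278 at an unadjusted p under 0.05), 0 to 5 members and 0 to 9 of the wider list. The balance turned without SN replicate 1 (51 higher, 97 lower) and without SN replicate 2 (4 higher, 7 lower).

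Ezh1 and Rnf2, which did not pass, turned below 0 under median scaling (-0.090 and -0.115), quantile normalization (-0.101 and -0.058), totals that leave out the top 100 genes (-0.032 and -0.051), the length correction with or without the block (-0.150 and -0.029) and voom with median scaling (-0.100 and -0.116). Rnf2 ranged from -0.0093 to 0.085 when 1 library was left out. Over the 13 alternatives with all libraries, the log2 fold change was 0.73 to 0.89 for Suz12, 0.50 to 0.73 for Kdm6a and 0.25 to 0.40 for Eed, all above 0. Each listed member rests on at least 440 read pairs per library, and the effect of depth was not tested.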
